A study of Bos taurus with 4 samples.

Results

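The trophectoderm (TE) is the outer epithelium of the blastocyst, from which the fetal part of the placenta derives, and the inner cell mass (ICM) is the cluster of cells inside it. A set of 10 transcription factors known for their roles in TE or trophoblast were taken by name: CDX2, GATA2, GATA3, TFAP2A, TFAP2C, ELF3, ELF5, EOMES, HAND1 and TEAD4. Every probe that the array's annotation pairs with one of these symbols was kept, whatever its values. This gave 27 probes for 9 of the 10 genes, out of 43653 gene probes, of which 27952 carry one of 12552 gene symbols. CDX2 had no probe under its symbol and is not analysed here.

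The factors form a loosely layered network that is best known from the mouse. There TEAD4, a DNA-binding partner of the Hippo pathway co-activators, acts early and upstream of CDX2 and GATA3. The AP-2 factors TFAP2A and TFAP2C and the zinc finger factors GATA2 and GATA3 take part in TE and trophoblast gene expression, ELF5 and EOMES maintain mouse trophoblast stem cells, and HAND1 acts in the formation of mouse trophoblast giant cells. In cattle the blastocyst stage is long, and the TE proliferates and elongates before it attaches to the uterus.

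Total RNA of ICMs from day 9 bovine embryos was measured on 4 two-colour arrays, each with 1 pool of NHSM ICMs and 1 pool of SOF ICMs, so that there were 4 pools per medium. In both groups embryos were produced in vitro from slaughterhouse oocytes of mixed breeds. They were kept in SOF, a synthetic oviductal fluid, until day 4 by the labels. The study's methods give this as 4 days of culture, begun after fertilization, whereas day 9 is counted from fertilization. The NHSM group was then moved to naïve human stem cell medium, which is KO DMEM with 20% knock-out serum replacement, insulin, glutamine, non-essential amino acids, beta-mercaptoethanol, antibiotics, LIF at 20 ng/ml, bFGF at 8 ng/ml and TGFβ1 at 1 ng/ml, together with the inhibitors PD0325901 (of the MEK/ERK pathway), CHIR99021 (GSK3), Go6983 (PKC), SP600125 (JNK) and SB203580 (p38). The SOF group was moved to fresh SOF. The effects of the single components and of the base medium cannot be told apart. A pool held 11 to 24 ICMs that had been cut from the TE with needles, and the study states that ICMs isolated by hand were not wholly pure and held some cells with TE features. In pooled RNA, fewer cells of a type and less RNA per cell cannot be told apart.

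In replicates 1 and 3 the NHSM RNA carried Cy3 and the SOF RNA Cy5, and in replicates 2 and 4 the dyes were exchanged. Signals are mean spot intensities in scanner units, not normalized. A probe counted as detected in a channel when it exceeded a floor, the 95th percentile of the 2 most frequent control probes there, and between 44.0% and 72.1% of the gene probes lay above it in NHSM pools, against 48.8% to 67.3% in SOF pools. As to the label of the tissue, NANOG and SOX2, factors of the epiblast, and GATA6, a hypoblast factor, were above the floor in all 8 pools, while SOX17, another hypoblast factor, was above it in 3 NHSM pools and 2 SOF pools. Of the 30 measured genes of TE structure and products, 26 were also above it in all 8 pools.

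Not all members could be measured equally well. Of the 27 member probes, 11 were above the floor in all 8 pools, and they belonged to GATA2, GATA3, TFAP2A, TFAP2C, ELF3 and HAND1. Another 2 were above it in all pools of 1 medium, 10 in some pools only, and 4 in no pool. ELF5, EOMES and TEAD4 had no probe that was above the floor in all pools of either medium, so that their transcripts were at or near the detection limit of these probes in ICMs of both media. Different probes of 1 gene gave very different signals. The probe TFAP2C BTAA008929 lay 259 to 490 times above the floor, while TFAP2C BTAA041210 stayed below it in every pool.

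**Figure D1:**
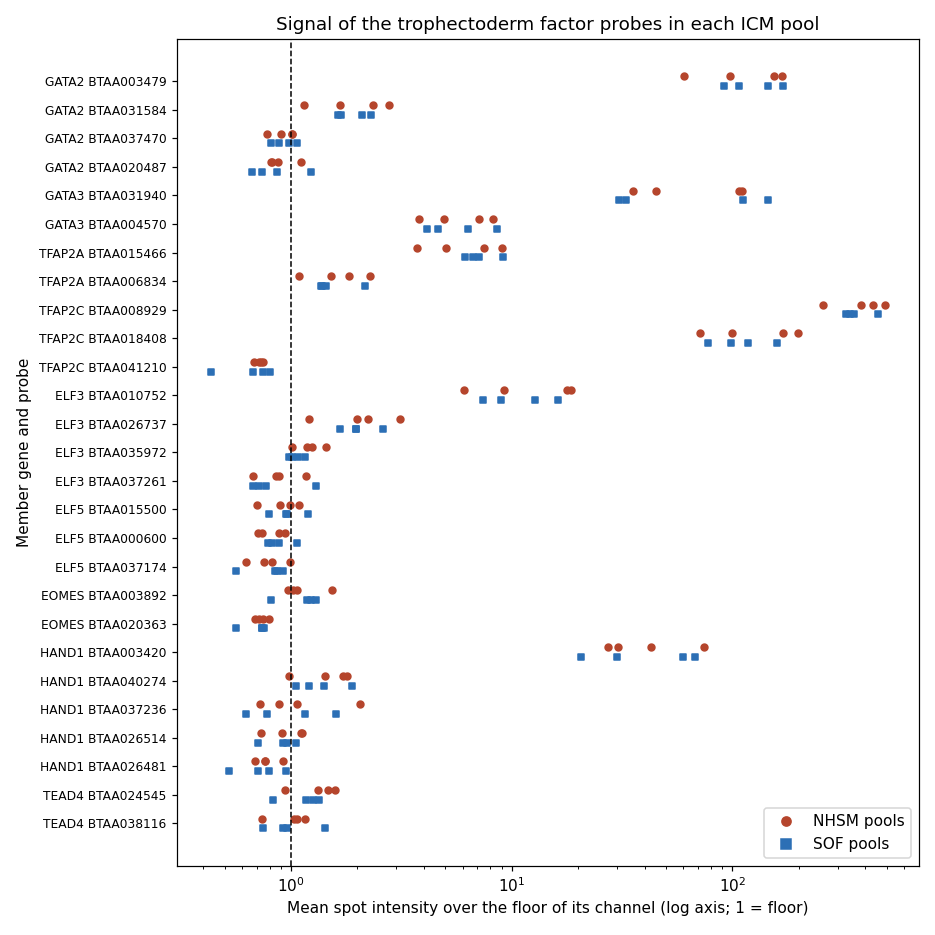
Mean spot intensity of each of the 27 member probes divided by the floor of its channel (log axis, dashed line at 1), with 4 NHSM pools as circles and 4 SOF pools as squares. In all 8 pools 11 probes of GATA2, GATA3, TFAP2A, TFAP2C, ELF3 and HAND1 lie right of the line. The probes of ELF5, EOMES and TEAD4 scatter around the line or lie left of it. They overlap the weakest of the 11, such as TFAP2A BTAA006834 at 1.09 to 2.28 times the floor.

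The comparison asked whether culture in NHSM changed the RNA levels of TE factors in the ICM. GATA2 and TFAP2A fell in NHSM ICMs, each in 1 of its probes, and no member probe rose. At an unadjusted p under 0.05 in limma's test 5 member probes were lower and 0 higher. No share over all probes is given for that threshold, so that this count has no background beside it. After adjustment, 2 of the 27 member probes (7.41%) passed an adjusted p of 0.05 in limma's test. This is near the background of 8.43% of all 43653 probes. Both were lower in NHSM, and over all probes 4.01% were lower and 4.42% higher at that threshold. No member probe reached a 1.5-fold difference as well, against 1.75% of all probes. The fitted log2 fold change (NHSM over SOF) of the 27 probes ranged between -0.46 and 0.09 with a median of -0.10, against a median of -0.01 over all probes. It was below 0 for 22 of the 27, against 53.7% of all probes. The 22 count probes of 1 gene separately, and include probes below the floor in every pool and HAND1 BTAA037236 at -0.005. The ratio was below 0 on all 4 arrays for 5 member probes (18.5%), which belonged to GATA2, TFAP2A and ELF5, against 9.95% of all probes.

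**Figure D2:**
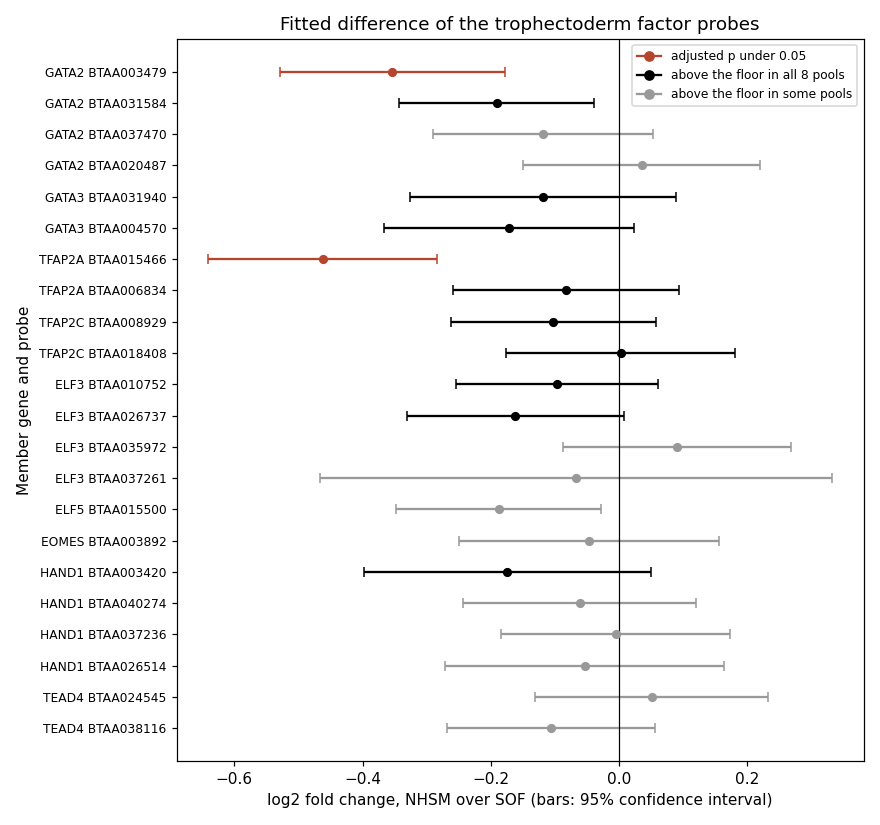
Fitted log2 fold change, NHSM over SOF, of the 22 member probes above the floor in at least 1 NHSM pool, with 95% confidence intervals from limma's moderated standard error (n = 4 arrays). The intervals of GATA2 BTAA003479 (-0.53 to -0.18) and TFAP2A BTAA015466 (-0.64 to -0.28) lie lowest. The intervals of GATA2 BTAA031584 and ELF5 BTAA015500 also exclude 0, without passing after adjustment, and the others include it.

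GATA2 lies on chromosome 22 and had 4 probes. The probe with the strongest signal, BTAA003479, had intensities of 8436, 12913, 11030 and 16400 in the NHSM pools of replicates 1 to 4, against 18172, 13210, 15464 and 10794 in their SOF pools. These raw signals, each read in 1 of the 2 dyes, overlapped between media. Normalization used loess within each array and then quantiles of the average signal between arrays. The log2 signals were then 13.48 ± 0.11 in NHSM and 13.83 ± 0.12 in SOF (SD, n = 4 each) and no longer overlapped. NHSM was lower on all 4 arrays, with log2 ratios of -0.36, -0.54, -0.24 and -0.27. The fitted difference was -0.35 ± 0.075 on the log2 scale (SE), or 1.28-fold lower in NHSM, with an adjusted p of 0.030 from limma. The call was lost without replicate 2 (-0.28, adjusted p = 0.202) and without replicate 4 (-0.42, adjusted p = 0.053). It was also lost with median centring (-0.30, adjusted p = 0.148), without a dye term (adjusted p = 0.059), with a variance trend (adjusted p = 0.097) and with separate channels (adjusted p = 0.112).

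A second GATA2 probe, BTAA031584, gave weak signals of 161 to 233 in NHSM pools and 198 to 258 in SOF pools. Its ratios were also below 0 on all 4 arrays, at -0.20, -0.17, -0.27 and -0.12. The difference of -0.19 ± 0.065 (SE) did not pass (adjusted p = 0.145). Between these 2 GATA2 probes the mean difference of the log2 ratios was -0.16 ± 0.16 (SD over 4 arrays), with an exact two-sided sign-flip p of 0.25, where 0.125 is the smallest p that 4 arrays allow. The remaining GATA2 probes, BTAA037470 and BTAA020487, were above the floor in 2 and 1 NHSM pools and in 1 SOF pool each, with fitted differences of -0.12 and 0.04.

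TFAP2A, on chromosome 23, showed the lowest fitted difference of all member probes. BTAA015466 had intensities of 524, 756, 570 and 740 in the NHSM pools of replicates 1 to 4, against 893, 820, 836 and 719 in the SOF pools. The normalized log2 signals were 9.27 ± 0.19 in NHSM and 9.73 ± 0.11 in SOF (SD, n = 4 each), and the groups did not overlap. All 4 log2 ratios were below 0, at -0.41, -0.29, -0.65 and -0.50. The fitted difference was -0.46 ± 0.076 (SE), or 1.38-fold lower in NHSM (adjusted p = 0.012). Leaving out replicate 4 (-0.41, adjusted p = 0.070) or using separate channels (adjusted p = 0.087) ended the call.

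The other TFAP2A probe did not show this difference. BTAA006834 gave 153 to 190 in NHSM pools and 161 to 197 in SOF pools, at 1.09 to 2.28 times the floor. Its ratios were -0.08, 0.13, -0.30 and -0.09, and the fitted -0.08 ± 0.075 (SE) did not pass (adjusted p = 0.712). The ratio of BTAA015466 was below that of BTAA006834 by a similar amount on every array, and the mean difference was -0.38 ± 0.049 (SD over 4 arrays). The exact two-sided sign-flip p was 0.125, the smallest possible, and 0.625 after Benjamini-Hochberg adjustment over the 5 probe pairs compared in this way. The call on TFAP2A therefore rests on 1 of its 2 probes. The positions of the probes in the transcripts are not given in the sources used here.

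**Figure D3:**
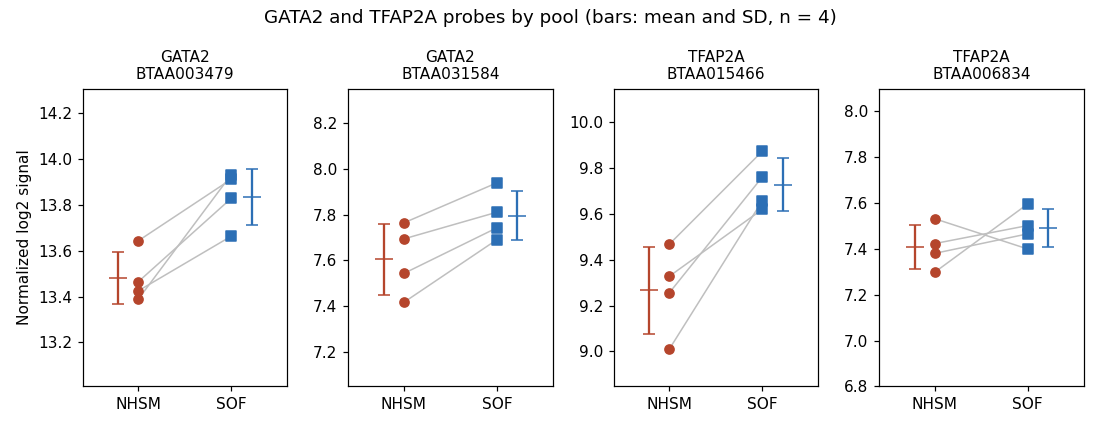
Normalized log2 signal of the 2 GATA2 and 2 TFAP2A probes above the floor in all 8 pools, with NHSM pools (circles) left and SOF pools (squares) right; grey lines join the pools of 1 array, and bars give mean and SD (n = 4). The groups are separate for BTAA003479 and BTAA015466 and overlap for BTAA031584 and BTAA006834.

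Together with the ELF5 probe BTAA015500, which lay near the floor, 3 of the 27 member probes (11.1%) had normalized signals that did not overlap between media, against 7.87% of all probes.

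For GATA3, TFAP2C, ELF3 and HAND1, the sign of the ratio went with the dye in the probe with the strongest signal. GATA3, on chromosome 13, is the clearest case. Its probe BTAA031940 had intensities of 4962, 9264, 5066 and 10548 in the NHSM pools of replicates 1 to 4, against 13914, 3778, 13194 and 3855 in the SOF pools. The Cy5 channel was the higher one on all 4 arrays, whichever medium it held. The log2 ratios were -0.80, 0.88, -1.21 and 0.66, and the fitted dye effect of 0.89 was larger in size than that of 99.7% of all probes. With the dye in the model the difference between media was -0.12 ± 0.089 (SE, adjusted p = 0.615), with a 95% interval of -0.33 to 0.09. In the deposited ratios, which the authors had corrected for dye bias, the same probe had 0.16, 0.19, -0.14 and -0.10. The other GATA3 probe, BTAA004570, had intensities of 536 to 698 in NHSM pools and 487 to 792 in SOF pools, and its difference of -0.17 ± 0.083 (SE) did not pass (adjusted p = 0.344).

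TFAP2C, also on chromosome 13, had a fitted dye effect of the opposite sign after loess in BTAA008929. The intensities were 36286, 40928, 43244 and 42598 in NHSM pools, against 44294, 42169, 41516 and 38524 in SOF pools, and none was saturated. In these raw signals the Cy5 channel was the higher one in replicates 1 and 4 and the lower one in replicates 2 and 3. After loess, the log2 ratios of 0.62, -0.69, 0.51 and -0.85 changed sign with the dye, which had a fitted effect of -0.67. The difference between media was -0.10 ± 0.068 (SE, adjusted p = 0.547). A second strong TFAP2C probe, BTAA018408, had little dye effect (-0.03). Its intensities were 10057, 16635, 11236 and 16665 in NHSM pools, against 14760, 12082, 14520 and 9118 in SOF pools. Its ratios were 0.19, -0.06, -0.12 and 0.01, and the fitted difference was 0.00 with a 95% interval of -0.18 to 0.18. For this probe a change of 1.5-fold in either direction lay outside the interval. The third probe, BTAA041210, was below the floor in all 8 pools, and no fold is given.

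ELF3, an ETS family factor of epithelial cells, lies on chromosome 16. BTAA010752 had intensities of 853, 1558, 1039 and 1755 in NHSM pools, against 1599, 1097, 1478 and 870 in SOF pools. Here too the ratio was below 0 with NHSM in Cy3 (-0.49 and -0.59) and above 0 with NHSM in Cy5 (0.28 and 0.41). The fitted difference was -0.10 ± 0.067 (SE, adjusted p = 0.573). BTAA026737, at 170 to 260 in NHSM pools and 195 to 247 in SOF pools, had -0.16 ± 0.072 (SE, adjusted p = 0.292). The remaining ELF3 probes lay around the floor. BTAA035972 had the highest fitted difference of the members, 0.09 (adjusted p = 0.674), and BTAA037261 had the widest interval, -0.47 to 0.33.

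HAND1, a basic helix-loop-helix factor on chromosome 7, was read clearly above the floor by only 1 of its 5 probes. BTAA003420 had intensities of 3830, 6229, 3418 and 4189 in NHSM pools, against 7501, 3695, 6196 and 2423 in SOF pools. Its ratios of -0.34, 0.37, -0.80 and 0.07 again followed the dye. The fitted difference was -0.17 ± 0.096 (SE, adjusted p = 0.424). BTAA040274, at 0.978 to 1.88 times the floor, had a difference of -0.06. The probes BTAA037236 and BTAA026514 were above the floor in 2 NHSM pools each and in 2 and 1 SOF pools, with differences of 0.00 or -0.05, and BTAA026481 was below it throughout.

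**Figure D4:**
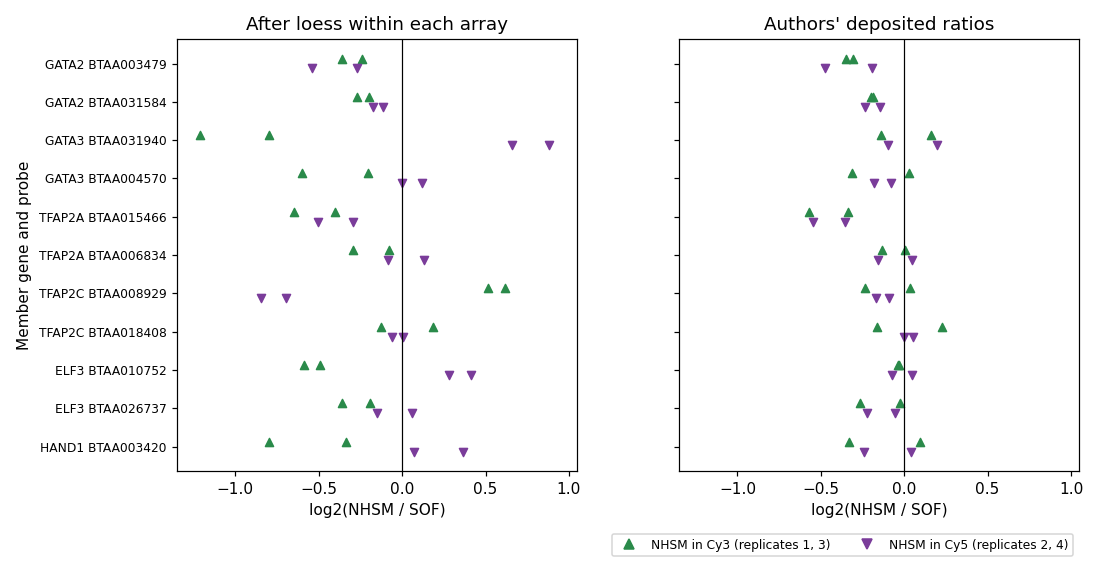
log2(NHSM / SOF) on each array for the 11 member probes above the floor in all 8 pools, after loess (left) and in the authors' deposited table (right); triangles up are arrays with NHSM in Cy3 and triangles down those with NHSM in Cy5. After loess, the 2 kinds of array lie on opposite sides of 0 for GATA3 BTAA031940, TFAP2C BTAA008929, ELF3 BTAA010752 and HAND1 BTAA003420, and all on the lower side for both GATA2 probes and TFAP2A BTAA015466.

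Of the 11 probes above the floor in all pools, 7 had mean ratios of opposite sign in the 2 dye orientations. These include probes with means near 0, such as TFAP2C BTAA018408 (0.03 with NHSM in Cy3 and -0.03 in Cy5). No share over all probes is given for this count. GATA2 BTAA003479 was lower in both, with a mean of -0.30 with NHSM in Cy3 and -0.41 with NHSM in Cy5. TFAP2A BTAA015466 had -0.53 and -0.40 in these orientations. Differences between the members in their response to NHSM were not tested, and a member that did not pass is not shown to be unchanged.

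ELF5 and EOMES, named above for their role in mouse trophoblast stem cells, gave little signal. ELF5, on chromosome 15, had 3 probes at 0.566 to 1.19 times the floor. BTAA015500 read 99, 90.5, 112 and 87.5 in NHSM pools, against 99.5, 117, 109 and 113 in SOF pools, and was above the floor in 1 pool of each medium. Its ratios were -0.25, -0.05, -0.21 and -0.24 and its fitted difference was -0.19 ± 0.068 (SE, adjusted p = 0.176). BTAA000600 was below 0 on all 4 arrays too, at -0.23, -0.08, -0.27 and -0.15 (adjusted p = 0.165), but was above the floor in no NHSM pool and in 1 SOF pool, so that no fold is given. Both of these ELF5 probes passed when the authors' deposited ratios, fitted without a dye term, were used instead (adjusted p = 0.046 and 0.022). The third ELF5 probe, BTAA037174, was above the floor in no pool, with adjusted p = 0.483, and has no fold either. Signals at this level are close to those of control spots. EOMES, on chromosome 22, was above the floor in 3 pools of each medium with BTAA003892, which read 144, 128, 109 and 104 in NHSM pools and 154, 146, 119 and 94.9 in SOF pools. That probe had a difference of -0.05 ± 0.087 (SE, adjusted p = 0.900), and BTAA020363 was below the floor in all 8 pools.

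TEAD4, on chromosome 5, was likewise near the floor. BTAA024545 read 131, 133, 166 and 130 in NHSM pools, against 104, 145, 122 and 148 in SOF pools, and was above the floor in 3 pools of each medium. Its difference was 0.05 ± 0.078 (SE, adjusted p = 0.866). BTAA038116 was above the floor in 3 NHSM pools and 1 SOF pool and had -0.11 ± 0.069 (SE, adjusted p = 0.535). The signals of both TEAD4 probes overlapped between media.

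Related genes were each read from the probe of strongest signal, so that a call rests on that probe. Only 1 named probe passed of 8 for TCF7L2, 6 for DSP, 5 for SOX2 and 4 for OCLN. It was 1 of 3 for NANOG, CGN, HSD3B1 and FSHR, and 1 of 2 for GATA6, DUSP4 and SPRY2. Both of 2 probes passed for DSC2, BHLHE40 and SMAD1. Among the 12545 genes of the array read in this way, 5.94% passed as lower in NHSM and 5.95% as higher, and the median log2 fold change was -0.02. Counts at an unadjusted p under 0.05 in limma's test are given for the lists below without such a share. They are therefore not read as a shift of a list. The Hippo list had 3 higher and 4 lower at that threshold, and TE structure and products 8 higher and 8 lower. The hypoblast list had 0 higher and 1 lower, and the cumulus and granulosa list 1 higher and 2 lower. Genes around TEAD4 in the Hippo pathway did not move in 1 direction. Of 24 measured genes, 3 rose, 3 fell and 18 did not pass, with a median log2 fold change of 0.02. MOB1A (0.59) and MOB1B (0.43), co-activators of the LATS kinases, and CCN2 (0.36), a known target of TEAD factors, were higher in NHSM. The scaffold AMOTL1 (-0.58), the paralogue TEAD2 (-0.36) and the kinase LATS2 (-0.35) were lower. The calls of CCN2, MOB1B and TEAD2 were lost without replicate 2 or without replicate 4, and that of LATS2 without replicate 2, 3 or 4. With separate channels these 4 calls were lost as well, and with median centring or no dye term those of TEAD2 and LATS2.

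Among paralogues of the members 3 of 19 fell, namely GATA6 (-0.45), TEAD2 and TBX3 (-0.36), none rose and 16 did not pass, with a median of -0.05. These 3 were also those with an unadjusted p under 0.05 in limma's test, with 0 higher. GATA6 intensities were 861 to 1915 in NHSM pools, against 1620 to 1947 in SOF pools. Without replicate 2 the calls of all 3 were lost, and without replicate 4 those of TEAD2 and TBX3. Median centring also ended all 3 calls, and separate channels those of GATA6 and TEAD2. Other transcription factors known from trophoblast gave 3 of 24 lower, none higher and 21 that did not pass, with a median of -0.12. At an unadjusted p under 0.05 in limma's test 7 were lower and 0 higher. BHLHE40 (-0.62) and ID1 (-0.60) fell, and BHLHE40 lost its call with separate channels. VGLL1 (-0.27), a partner of TEAD factors, passed at an adjusted p of 0.04996 and lost its call whichever of the 4 replicates was left out, and with median centring, no dye term or separate channels.

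Among genes of the signals that act on these factors (FGF and ERK, BMP, Notch and Wnt), 7 of 22 measured genes fell, none rose and 15 did not pass, and the median was -0.15. At an unadjusted p under 0.05 in limma's test 11 were lower and 0 higher. Among feedback regulators of ERK signalling, DUSP4 (-0.90) and SPRY2 (-0.78) fell. DUSP6 (0.00) did not pass at the probe read, though 1 of its 3 probes passed as lower, and SPRY4 was at or below the floor in every pool. The BMP targets ID3 (-0.72) and ID1 fell, while ID2 (-0.26) did not pass. Also lower were the BMP mediator SMAD1 (-0.51) and TCF7L2 (-0.47), a Wnt pathway factor. DUSP4 and ID3 were above the floor in 3 NHSM pools and 4 SOF pools. The calls of SMAD1 and TCF7L2 were lost without replicate 2. With separate channels the calls of DUSP4, SMAD1 and TCF7L2 were lost, and with median centring or no dye term that of SMAD1.

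Cell type markers moved as follows beside the members, and their part in the results was not tested. Of 45 listed genes of TE structure and products, 30 were measured. Of these, 3 rose, 5 fell and 22 did not pass, with a median of -0.06. Lower were the junction genes CGN (-0.74), DSC2 (-0.73), DSP (-0.62) and OCLN (-0.46), and higher were HSD3B1 (0.88), a steroid-producing enzyme, and the water channel gene AQP11 (0.52). The keratin gene KRT7 (0.40) also passed as higher and PTGES (-0.37) as lower. The stability of the KRT7 and PTGES calls in other settings is not given. The call of OCLN was lost without replicate 2 or with median centring, and that of AQP11 without replicate 4 or with separate channels. The summed normalized signal of these genes was 95738 to 133577 in NHSM pools and 117256 to 140784 in SOF pools. PAG12, a pregnancy-associated glycoprotein gene, held 25.9% to 48.4% of that sum in single pools, and its spot was saturated in 1 NHSM pool and 1 SOF pool. Without PAG12, left out after seeing the data, the sum was 60042 to 70220 in NHSM pools and 72861 to 86892 in SOF pools, so that the ranges overlapped with it and were separate without it. The remaining sum still held bright genes called lower above, such as DSP, with raw signals of 7659 to 11364 in NHSM pools and 11023 to 17416 in SOF pools. It is therefore not a result separate from those calls. FURIN and WNT7B were at or below the floor in every pool. KRT8 and KRT18, keratins of the TE, had no probe under their symbols and are not analysed here. The same holds for the listed interferon tau genes IFNT and IFNT2, so that the counts and sums above do not cover interferon tau.

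Of 6 measured epiblast genes, 3 fell and none rose, namely SOX2 (-0.32), PRDM14 (-0.32) and NANOG (-0.31), with 4 lower and 0 higher at an unadjusted p under 0.05 in limma's test. Each of these calls was lost without replicate 2 and without replicate 4, those of PRDM14 and NANOG also without replicate 1 and that of SOX2 also without replicate 3. All 3 were lost with median centring, no dye term or separate channels, and that of NANOG also with a variance trend. The sum over the epiblast genes was 6896 to 8822 in NHSM pools and 8397 to 10241 in SOF pools, and LIN28B was at or below the floor throughout. Of 8 hypoblast genes only GATA6 fell, and SOX17 had -0.06 (adjusted p = 0.772), while the sum was 7476 to 10424 in NHSM pools and 7772 to 9347 in SOF pools, with no gene at or below the floor in every pool. Of 11 genes of cumulus and granulosa cells, which surround the oocyte, FSHR was higher (0.44) and FST lower (-0.51). Without replicate 2 or the dye term both calls were lost, and that of FST also without replicate 4, with separate channels and with the deposited ratios. That list summed to 49949 to 63360 in NHSM pools and 50049 to 89106 in SOF pools, of which AMH and STAR held 96.9% to 98.3% in single pools. Without these genes it was 1430 to 1608 in NHSM pools and 1452 to 1737 in SOF pools. NR5A1 and VCAN were at or below the floor in every pool.

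**Figure D5:**
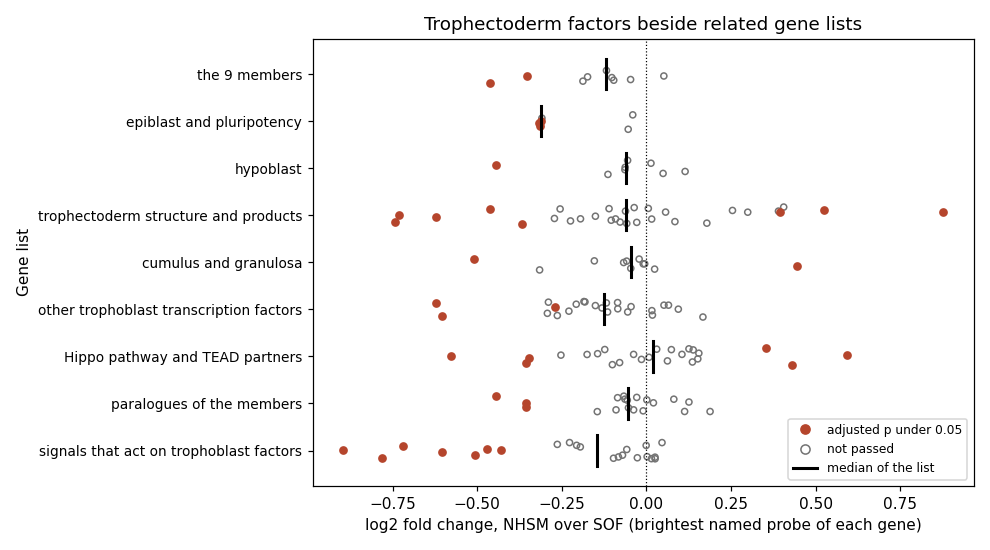
Fitted log2 fold change, NHSM over SOF, of the probe with the strongest signal of each gene, for the 9 members and 8 related gene lists; filled circles passed an adjusted p of 0.05 and black bars are list medians. Among the members 2 points are filled, both left of 0, and the TE structure and Hippo lists hold filled points on both sides.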

How the data were processed

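Mean signal and background intensity values per spot were deposited by the authors for 4 two-colour Agilent bovine V2 arrays, quantified with ImaGene and not normalized. The authors also deposited log2 ratios per array, made by loess normalization and correction of gene-specific dye bias. Their analysis used MAANOVA.

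Here, limma 3.58.1 in R 4.3.3 was used on 43653 gene probes. Mean intensities were turned into log2 ratios and loess-normalized array by array, without background correction and with 1567 control spots at weight 0. For normalized signals of single pools and their sums, the average log2 signals were also quantile-normalized between arrays. That step leaves the ratios unchanged. A dye term was fitted beside the medium, and the test was empirical Bayes with 2 residual and 5.33 prior degrees of freedom. P-values were two-sided and Benjamini-Hochberg adjusted over all gene probes, and a probe passed at an adjusted p under 0.05. The code was tested on simulated data.

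Probe names came from the array's annotation and chromosomes from RefSeq (ARS-UCD2.0), with no coordinates, since the array's build is not given in the sources used here. Old array symbols were updated through synonyms (HSD3B to HSD3B1, MOBKL1B to MOB1A, CTGF to CCN2, TCFL2 to TCF7L2). Each list gene was read from its named probe of strongest signal. Every member probe was named, and of each list the genes that passed, at most 6 by size of the log2 fold change, plus NANOG, SOX2, GATA6, SOX17, KRT8 and KRT18. List genes given as below the floor, PAG12, AMH, STAR, KRT7, PTGES, DUSP6 and ID2 were named outside this rule, after seeing their values. IFNT and IFNT2 were also named outside it. The members and lists were chosen with earlier results of these data known.

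The pools were described as independent biological replicates. The p-values set the fitted difference against the spread of the array ratios left after the medium and dye terms. That spread was moderated with a variance drawn from all probes, which held more degrees of freedom than the arrays themselves. Channels of 1 array share its spots, and their deviations from the group means correlated with r of 0.66, 0.41, 0.33 and 0.41. The number of arrays limits the precision. Alternatives were normexp background correction with an offset of 50, median centring, no dye term, separate channels, only probes above the floor, a variance trend, the deposited ratios and each replicate left out. The deposited ratios, already corrected for dye bias, were fitted without a dye term, which leaves more residual degrees of freedom than the main fit.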

Additional observations from a re-analysis of the deposited data

Results flagged for a closer look

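Of the 55 probes named by the rule above or belonging to members, 4 had 1 array far from the other 3, past Dixon's 95% critical value for groups of 4. Chance flags about 1 in 20 such groups. HAND1 BTAA026481 had a log2 ratio (NHSM over SOF) of -0.37 in replicate 3, in a probe that was below the floor in all pools. FST BTAA007979, a granulosa gene, had -1.04 in replicate 1. VGLL1 BTAA022551 had -0.17 in replicate 3, the smallest difference of its 4 arrays. SMAD1 BTAA003425 had -0.90 in replicate 2. None of the 11 member probes above the floor in all 8 pools was among them.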

How the results depend on the processing

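The 2 member probes that passed were GATA2 BTAA003479 and TFAP2A BTAA015466, and both passed also with normexp background correction and with only probes above the floor. With median centring, without a dye term and with a variance trend 1 passed, TFAP2A BTAA015466, and with separate channels and no replicate block limma passed 0, where 3 had an unadjusted p under 0.05. With the deposited log2 ratios 5 passed, all lower in NHSM, the added ones being GATA2 BTAA031584 and 2 ELF5 probes. Leaving out 1 replicate gave 0 (without replicate 4, with 2 at an unadjusted p under 0.05) to 2. Over all probes 3679 passed, against 1830 without a dye term, 1091 with separate channels, 5843 with the deposited ratios and 1642 to 4761 with 1 replicate left out. Of the probes that passed, 52.4% were higher in NHSM, and 67.3% with median centring. The cause of these changes was not tested. Of 27 other genes named by the rule that passed, 9 kept their call in every setting, 15 lost it without replicate 2, 11 without replicate 4 and 15 with separate channels. Counting a gene of TE structure and products when any named probe passed gave 13 genes in place of 8. With the floor at the 99th percentile 12779 probes were above it, against 20542. No result changed direction past the threshold. Probes near the floor, which include all of ELF5, EOMES and TEAD4, limit what can be read of those members.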
